A study of Mus musculus with 6 samples.

Results

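The vitamin D receptor, the enzyme that breaks down active vitamin D, the parathyroid hormone receptor and 6 other hormone receptors were followed across 6 arrays of primary mouse calvarial osteoblasts. The 9 genes are Vdr, Cyp24a1, Pth1r, Esr1, Nr3c1, Thra, Thrb, Npr3 and Ghr, and every probe that the array's transcript annotation assigned to them was used. They were covered by 15 of the 39429 probes, and they are 9 of 20659 named genes. Of these 15 probes, 11 were well above background on at least 2 arrays and were tested, and they covered all of the genes except Esr1. The cells were calvarial osteoblasts of CD1 mice that were 2 to 5 days old, released from the bone with collagenase and trypsin after the earliest digests were discarded, and no sort of the cells was described. Undifferentiated osteoblasts were grown to confluence in MEM with 10% FBS. Differentiated osteoblasts were confluent cells kept for 30 days in differentiation medium, which contains ascorbic acid and β-glycerol phosphate. Cabozantinib-treated osteoblasts were kept in the same medium for 30 days with 100 nM cabozantinib, an inhibitor of the receptor tyrosine kinases VEGFR2 and MET. There were 2 arrays for each condition. Nothing says that duplicates came from separate cultures or litters, so p-values measure only the spread between these samples, which may be technical. In RNA from whole cultures, fewer cells of a type and less RNA per cell cannot be told apart.

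The receptors fall into groups by how they signal. VDR, ERα, the glucocorticoid receptor (Nr3c1) and the thyroid hormone receptors (Thra, Thrb) are nuclear receptors, which bind a hormone inside the cell and act on promoters and enhancers. VDR pairs with a retinoid X receptor, and its best known target is Cyp24a1, the 24-hydroxylase that inactivates the hormone. PTH1R is a G protein-coupled receptor for parathyroid hormone and PTHrP that raises cyclic AMP in osteoblasts. GHR signals through JAK2 and STAT5 to genes such as Igf1. NPR3 binds natriuretic peptides and removes them from the cell surface without making cyclic GMP.

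Values are log2 signals of the scanner software relative to the 75th percentile of each array, so that 0 marks a bright probe and negative values mark dimmer ones. Values of different probes cannot be set against each other. Groups were compared with limma over 27232 probes, and a probe was called at an adjusted p under 0.05 by the Benjamini-Hochberg method. The 2 cabozantinib arrays were scanned apart from the other 4 arrays, so that the scan and cabozantinib cannot be told apart. The 4 arrays without cabozantinib were scanned together. The share of spots well above background was 58.8% to 72.9% per array, and no spot was saturated. The median of all probes was 0.08 in differentiated relative to undifferentiated osteoblasts, -0.27 in cabozantinib-treated relative to differentiated osteoblasts and -0.39 in cabozantinib-treated relative to undifferentiated osteoblasts. With quantile normalization these medians were 0.07, -0.06 and -0.14. Each group serves in 2 of the 3 comparisons, so their values are not independent of each other.

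Promoter sequences are shown for Vdr and Thrb because these were the 2 genes with a called probe. The sequences are 300 bases, from 250 before to 50 after a RefSeq transcription start (build GRCm38.p6). RefSeq promoters were at hand for 6 of the 9 genes, and the promoters of Cyp24a1, Nr3c1 and Thra were not analysed here. Capitals mark matches on either strand to the GC box GGGCGG, the nuclear receptor motif AGGTCA, the variant GGTTCA, the glucocorticoid receptor motif AGAACA, the cyclic AMP motif TGACG and the TATA box TATAAA. Vdr lies on chromosome 15, minus strand (chr15:97908247-97908546). Thrb lies on chromosome 14, plus strand, and its start sites are 1 (chr14:17660710-17661009) and 2 (chr14:17981394-17981693).
Vdr: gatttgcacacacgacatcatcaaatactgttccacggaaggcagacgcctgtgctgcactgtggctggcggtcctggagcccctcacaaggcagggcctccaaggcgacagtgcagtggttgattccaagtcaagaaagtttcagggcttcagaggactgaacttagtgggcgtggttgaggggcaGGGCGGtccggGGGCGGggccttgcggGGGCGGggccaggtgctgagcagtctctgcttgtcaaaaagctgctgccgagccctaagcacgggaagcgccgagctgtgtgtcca
Thrb start 1: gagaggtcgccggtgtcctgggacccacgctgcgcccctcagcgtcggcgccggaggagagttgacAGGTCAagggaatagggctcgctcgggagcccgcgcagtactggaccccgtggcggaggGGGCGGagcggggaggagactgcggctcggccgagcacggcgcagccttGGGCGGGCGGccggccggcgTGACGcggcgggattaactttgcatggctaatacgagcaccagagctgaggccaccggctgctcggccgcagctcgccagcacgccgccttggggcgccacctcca
Thrb start 2: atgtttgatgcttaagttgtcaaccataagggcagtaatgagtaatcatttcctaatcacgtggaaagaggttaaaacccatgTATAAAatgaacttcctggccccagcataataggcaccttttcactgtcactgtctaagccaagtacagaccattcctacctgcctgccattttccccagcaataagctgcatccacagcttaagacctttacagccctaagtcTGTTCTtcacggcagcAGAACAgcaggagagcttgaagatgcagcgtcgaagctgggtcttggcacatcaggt

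The Vdr promoter had 61.3% GC, against a median of 52.7% over 32851 promoters. Its only matches were 3 GC boxes, which began 63, 52 and 36 bases before the start site, and 35.7% of all promoters hold at least 1. The promoter at Thrb start 1 had 72.7% GC and 3 GC boxes, of which 2 overlap as GGGCGGGCGG. It also held AGGTCA (found in 16.3% of promoters) and TGACG (20.8%). The promoter at Thrb start 2 had 46.0% GC, no GC box, a TATA box 167 bases before the start site (13.6%), and 2 matches to AGAACA (19.0%). GGTTCA (10.4%) was in none of these 3 windows. Which of the 2 Thrb start sites gave the transcripts that the probes measured was not tested, since probe sequences were not analysed here.

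Vdr was the member with the clearest difference. Its signal was 0.49 and 0.61 in undifferentiated cells, -2.52 and -2.37 in differentiated cells, and -1.22 and -0.94 in cabozantinib-treated cells, and the probe was well above background on all 6 arrays. The groups did not overlap, with undifferentiated cells highest, cabozantinib-treated cells between and differentiated cells lowest. The group means were 0.55 ± 0.08, -2.44 ± 0.10 and -1.08 ± 0.20 (SD, n = 2). Vdr fell by 2.99 on the log2 scale in differentiated relative to undifferentiated osteoblasts (SE 0.48, 95% confidence interval -4.07 to -1.92), which is 7.97-fold, with a limma adjusted p of 0.00423. It was the only member probe of the 11 tested with an adjusted p under 0.05 in this comparison, where 10% of all probes tested were called (4.97% higher and 5.06% lower). Vdr kept its call in each of the 16 other limma settings, with differences from -3.12 to -2.54. These settings are not all distinct, since leaving out either cabozantinib array repeats the fit to the 4 compared arrays with the replicate term.

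In cabozantinib-treated relative to differentiated osteoblasts the Vdr difference was 1.36 (SE 0.48, 95% confidence interval 0.28 to 2.44), 2.57-fold, with a limma adjusted p of 0.126. No member probe was called in this comparison, where 2.7% of all probes were called, 38 of them higher and 696 lower (0.14% and 2.56% of probes). At an unadjusted p under 0.05 there were 3 member probes, Vdr, Cyp24a1 and Npr3, and 6337 probes in all. Against undifferentiated osteoblasts, Vdr in cabozantinib-treated osteoblasts was at -1.63 (SE 0.48), with a limma adjusted p of 0.0512. The drug-treated arrays thus lay 1.36 above the differentiated and 1.63 below the undifferentiated mean, and neither distance passed the threshold.

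Cyp24a1 was dim throughout. Its signal was -4.73 and -4.82 in undifferentiated cells, -5.09 and -4.13 in differentiated cells, and -5.93 and -6.46 in cabozantinib-treated cells. It was well above background on 1 undifferentiated array, on both differentiated arrays and on neither cabozantinib array. The undifferentiated and differentiated values overlapped, with a difference of 0.16 (limma adjusted p = 0.957). Both cabozantinib values lay below the other 4 arrays. Relative to differentiated cells the measured difference was -1.58 (SE 0.54, limma adjusted p = 0.117) and, with the dimmest signals well above background as the floor of each array, at least 1.75-fold. Relative to undifferentiated cells it was -1.42 (limma adjusted p = 0.105) and at least 1.57-fold. With quantile normalization the difference from differentiated cells was -0.70. Vdr and Cyp24a1 therefore differed in order, with Vdr lowest in differentiated cells and Cyp24a1 lowest in cabozantinib-treated cells, and the Cyp24a1 differences did not pass the test.

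Of the 22 other genes listed for vitamin D activation, transport and action, all were tested. Differentiated cells had 2 lower and 0 higher than undifferentiated cells at an adjusted p under 0.05, where 10.7% of all genes at their brightest probe were called (6.31% higher and 4.35% lower). Cabozantinib-treated cells had 1 lower than differentiated cells, against 2.18% of all genes (0.143% higher and 2.03% lower), and 3 lower than undifferentiated cells, against 12.6% of all genes (5.7% higher and 6.93% lower). The median of the list was 0.02, -0.26 and -0.46 in the 3 comparisons, and that of all genes 0.12, -0.21 and -0.20.

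The genes that fell were a pair of vitamin D targets and an enzyme. S100g, the calcium-binding protein calbindin-D9k, was at -1.64 and -2.79 in undifferentiated cells, -5.33 and -5.17 in differentiated cells, and not well above background on either cabozantinib array. It fell by 3.04 in differentiated cells (limma adjusted p = 0.0190) and was at least 9.22-fold lower in cabozantinib-treated than in undifferentiated cells (limma adjusted p = 0.00384). Its other probe was called in the same direction in both comparisons, with differences of -3.93 and -5.08. The S100g call in differentiated cells was lost with quantile normalization, with normexp, in the authors' values, without the filter on dim probes and without undifferentiated replicate 1 (-1.98) or 2 (-4.10), and the differences over all settings ran from -4.10 to -1.54. The S100g call in cabozantinib-treated cells was lost with quantile normalization, with normexp (-2.12) and in the authors' values. Spp1, which encodes osteopontin, a protein of bone matrix, fell by 3.67 in differentiated cells (limma adjusted p = 0.0317) and by 3.34 in cabozantinib-treated relative to undifferentiated cells (limma adjusted p = 0.0410). Both Spp1 calls were lost without the replicate term (adjusted p = 0.0546 and 0.0501), with quantile normalization, with normexp, in the authors' values, without the filter on dim probes and with trend and robust settings. They were also lost without undifferentiated replicate 2, where the Spp1 differences were -1.84 and -1.52, and the second was lost without cabozantinib replicate 2 (-1.54). Spp1 varied widely among the cabozantinib arrays, which were at 2.71 and -0.46. Cyp27a1, a sterol 27-hydroxylase that can also 25-hydroxylate vitamin D, was at -2.22 and -2.37 in undifferentiated cells, -2.22 and -2.07 in differentiated cells, and -4.51 and -4.38 in cabozantinib-treated cells. It was the vitamin D gene called against differentiated cells, with a difference of -2.30 (limma adjusted p = 0.0473), and it was at -2.15 against undifferentiated cells (limma adjusted p = 0.0213). With quantile normalization the Cyp27a1 difference from differentiated cells was -1.78 and no gene of any list was called in that comparison. The Cyp27a1 call against undifferentiated cells was lost with quantile normalization, with normexp, in the authors' values and without the filter on dim probes.

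Pth1r had its highest signal in undifferentiated cells. It was 2.24 and 1.82 in undifferentiated cells, 0.28 and 0.92 in differentiated cells, and 1.29 and 1.49 in cabozantinib-treated cells, well above background on all 6. The groups did not overlap and had the same order as those of Vdr. The group means were 2.03 ± 0.30, 0.60 ± 0.45 and 1.39 ± 0.14 (SD, n = 2). The difference between differentiated and undifferentiated cells was -1.43 (SE 0.51, 95% confidence interval -2.57 to -0.29), with a limma adjusted p of 0.125. Cabozantinib-treated cells were at 0.79 relative to differentiated cells (SE 0.51, 95% confidence interval -0.35 to 1.93, limma adjusted p = 0.430) and at -0.65 relative to undifferentiated cells (limma adjusted p = 0.430). None of the 3 differences passed the threshold.

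Of 26 other genes of the PTH pathway, 23 were tested. Of all genes at their brightest probe, 10.7%, 2.18% and 12.6% were called in the 3 comparisons. Among the 23 genes, 2 rose and 2 fell between differentiated and undifferentiated cells, no gene was called between cabozantinib-treated and differentiated cells, and 2 rose in cabozantinib-treated relative to undifferentiated cells. Both genes that rose were β-arrestins, which bind activated G protein-coupled receptors such as PTH1R. Arrb1 rose by 2.28 in differentiated cells (limma adjusted p = 0.0178) and by 2.42 in cabozantinib-treated cells (limma adjusted p = 0.0159), each relative to undifferentiated cells. Arrb2 was at -3.67 on both undifferentiated arrays, -1.37 and -0.94 in differentiated cells, and -1.43 and -1.24 in cabozantinib-treated cells. It rose by 2.52 (limma adjusted p = 0.00989) and 2.34 (limma adjusted p = 0.0162). The genes that fell in differentiated cells were Gna11, a G protein α subunit that couples receptors to phospholipase C, at -2.04 (limma adjusted p = 0.0294), and Pde4b, a phosphodiesterase that degrades cyclic AMP, at -2.27 (limma adjusted p = 0.0469). The Gna11 and Pde4b calls were lost with normexp, in the authors' values and without the filter on dim probes, and that of Pde4b also with quantile normalization. The Arrb1 call in differentiated cells was lost with normexp and without the filter on dim probes. Both Arrb2 calls were lost with normexp, and that in cabozantinib-treated cells also without the filter. Over all settings the Arrb2 differences were as small as 1.57 and 1.33. The median of the list in the 3 comparisons was 0.01, -0.01 and -0.12. It was 0.02, 0.24 and 0.23 with quantile normalization, so that the sign of the last pair of medians depended on the scaling.

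**Figure D1:**
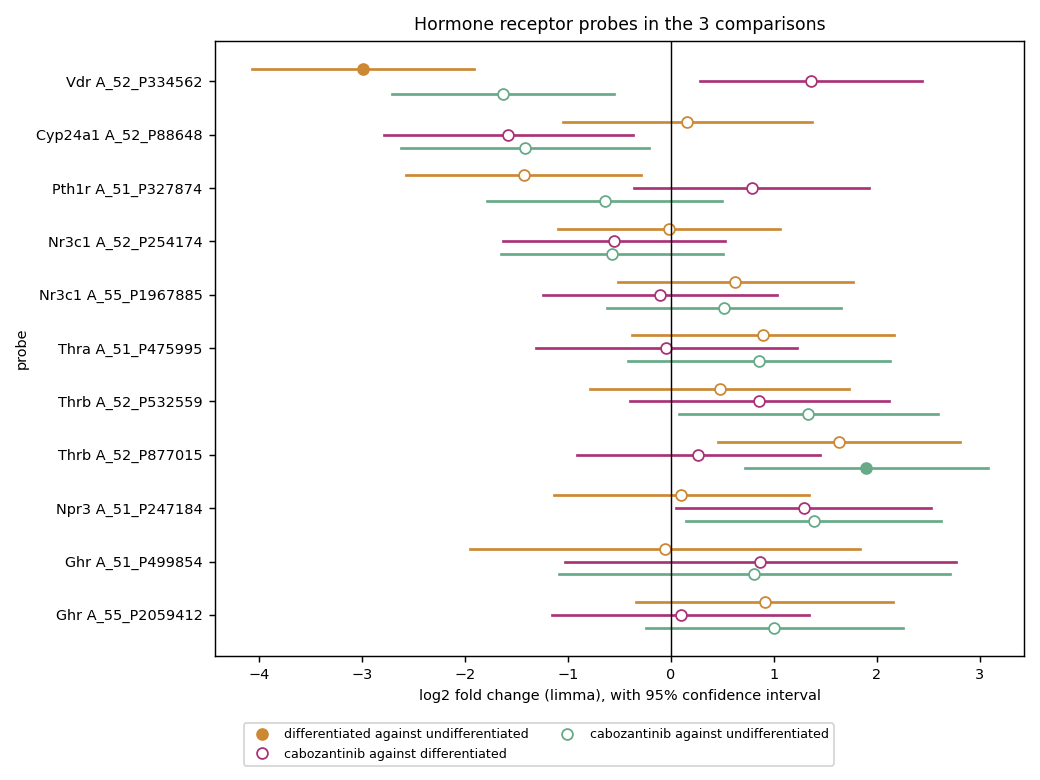
Log2 fold change with its 95% confidence interval from limma (x axis) for each of the 11 probes tested (y axis) in the 3 comparisons, with filled points where the adjusted p is under 0.05. The filled points are Vdr in differentiated against undifferentiated osteoblasts, at -2.99, and the Thrb probe A_52_P877015 in cabozantinib-treated against undifferentiated osteoblasts, at 1.90.

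Esr1, which encodes ERα, was not detectable on these arrays. Its 3 probes, of which A_52_P237077 was printed in 10 spots, were not well above background on any of the 6 arrays, and no fold change is given. Genes of sex steroid action were tested for 13 of the 17 listed genes found on the array. None was called between differentiated and undifferentiated cells, where 2 passed without the replicate term (that fit called 13.9% of all probes). The shares of all genes called were 10.7%, 2.18% and 12.6% in the 3 comparisons. Hsd17b1, a 17β-hydroxysteroid dehydrogenase that makes estradiol from estrone, was at -2.23 and -2.28 in undifferentiated, -0.97 and -2.68 in differentiated, and -4.47 and -4.53 in cabozantinib-treated cells. It fell by 2.68 relative to differentiated cells (limma adjusted p = 0.0476) and by 2.25 relative to undifferentiated cells (limma adjusted p = 0.0321). Both Hsd17b1 calls were lost with quantile normalization, with normexp, in the authors' values and without the filter on dim probes. The differentiated arrays differed from each other by more than they differed, on average, from the undifferentiated arrays. Esr2, which encodes ERβ and was looked at after its values were seen, was well above background on all 6 arrays, with differences of -0.27, 0.10 and -0.17 in the 3 comparisons and limma adjusted p of 0.905, 0.963 and 0.862.

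Nr3c1 was measured by 2 probes, each well above background on every array, and neither was called. The brighter probe, A_55_P1967885, was at 4.86 and 4.29 in undifferentiated cells, 5.01 and 5.39 in differentiated cells, and 4.95 and 5.23 in cabozantinib-treated cells. Its differences were 0.63 (95% confidence interval -0.51 to 1.77) in differentiated relative to undifferentiated cells, -0.11 (-1.25 to 1.03) in cabozantinib-treated relative to differentiated cells and 0.52 (-0.62 to 1.66) in cabozantinib-treated relative to undifferentiated cells, with limma adjusted p of 0.618, 0.960 and 0.544. The dimmer probe, A_52_P254174, was at -3.24 and -3.06, then -3.25 and -3.09, and then -3.69 and -3.75. Its differences were -0.02, -0.55 and -0.57 (limma adjusted p = 0.996, 0.606 and 0.467). The 2 probes had opposite signs in cabozantinib-treated relative to undifferentiated cells, and with quantile normalization the dimmer probe was at 0.06 there. Changes of the size of the Vdr difference between differentiated and undifferentiated cells (-2.99) lie outside all 6 intervals of these probes. The Vdr differences in the other comparisons, 1.36 and -1.63, lie inside some of them.

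Of 18 other genes of glucocorticoid action, 17 were tested. Among all genes, 10.7%, 2.18% and 12.6% were called in the 3 comparisons. Hsd11b1, the enzyme that regenerates active glucocorticoid, rose by 2.02 in differentiated relative to undifferentiated cells (limma adjusted p = 0.0273) and was the list's only call in that comparison. No gene was called between cabozantinib-treated and differentiated cells. Errfi1, an inhibitor of EGF receptor signaling, fell by 1.81 (limma adjusted p = 0.0420), and Mt2, a metallothionein, fell by 2.16 (limma adjusted p = 0.0344) in cabozantinib-treated relative to undifferentiated cells. The Hsd11b1, Errfi1 and Mt2 calls were each lost with normexp and without the filter on dim probes. The Errfi1 call was also lost with quantile normalization and in the authors' values. The median of the list was -0.07, -0.51 and -0.73 in the 3 comparisons, and -0.26, -0.47 and -0.68 with quantile normalization.

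Thyroid hormone receptors were measured by 4 probes. Thra, the receptor gene that predominates in bone, was at 1.09 and 0.50 in undifferentiated cells, 1.04 and 2.34 in differentiated cells, and 1.53 and 1.77 in cabozantinib-treated cells for probe A_51_P475995. The undifferentiated and differentiated values overlapped. Its differences were 0.90, -0.04 and 0.85 in the 3 comparisons, none of which passed the test (limma adjusted p = 0.460, 0.985 and 0.343). The other Thra probe, A_66_P102879, was not well above background on any array.

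Both Thrb probes were dim and lay above background on every array except undifferentiated replicate 1. Probe A_52_P877015 was at -6.15 and -5.26 in undifferentiated cells, -3.87 and -4.28 in differentiated cells, and -3.77 and -3.85 in cabozantinib-treated cells. The undifferentiated values lay below the other 4 arrays. The probe rose by 1.90 in cabozantinib-treated relative to undifferentiated cells (SE 0.53, 95% confidence interval 0.72 to 3.08, 3.73-fold, limma adjusted p = 0.0430). This was the only member probe called in that comparison, where 13.7% of all probes were called (4.47% higher and 9.2% lower). The difference of differentiated from undifferentiated cells was 1.63 (SE 0.53, limma adjusted p = 0.0893), and that of cabozantinib-treated from differentiated cells was 0.27 (95% confidence interval -0.91 to 1.44, limma adjusted p = 0.884).

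The call of Thrb depended on the settings. With a normexp background correction the difference was 0.15 (limma adjusted p = 0.924), and the adjusted p was 0.0671 with quantile normalization, 0.0878 in the authors' values and 0.100 without a filter on dim probes. It was 0.0614 without undifferentiated replicate 1, 0.391 without cabozantinib replicate 1 and 0.283 without cabozantinib replicate 2, with differences of 1.33, 1.74 and 2.05. Probe A_52_P532559 was at -4.66 and -4.12 in undifferentiated cells, -3.28 and -4.55 in differentiated cells, and -2.79 and -3.32 in cabozantinib-treated cells. Its differences were 0.47, 0.86 and 1.33 (limma adjusted p = 0.793, 0.435 and 0.136), with the same signs as those of the other probe and no call.

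**Figure D2:**
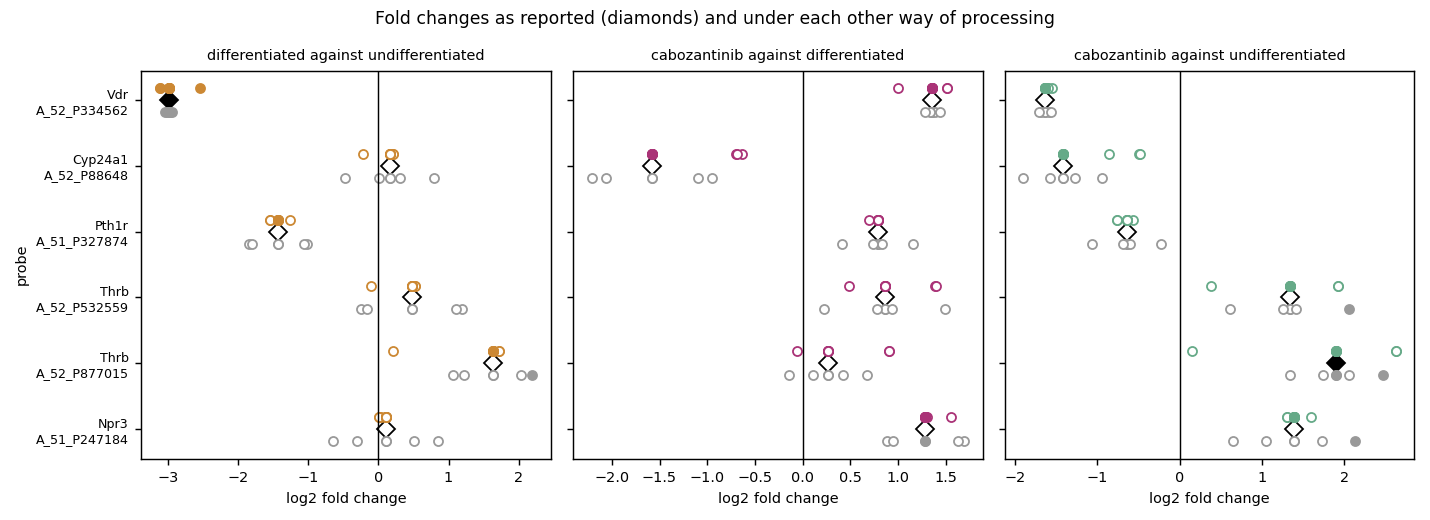
Log2 fold change (x axis) of the 6 member probes with an unadjusted p under 0.05 in at least 1 comparison (y axis), in 3 comparisons. Diamonds are the values reported, colored points are other ways of processing all arrays, gray points leave out 1 array each, and filled symbols have an adjusted p under 0.05. All Vdr symbols in differentiated against undifferentiated cells are filled and lie between -3.12 and -2.54, while Thrb A_52_P877015 in cabozantinib-treated against undifferentiated cells spans 0.15 to 2.62.

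Among 16 tested genes of 18 listed for thyroid hormone transport, activation and action, 4 rose and 1 fell in differentiated relative to undifferentiated cells. The same 4 genes rose in cabozantinib-treated relative to undifferentiated cells, and none was called between cabozantinib-treated and differentiated cells. Among all genes the shares called in these comparisons were 10.7%, 12.6% and 2.18%. Dio2, the deiodinase that makes active T3 from T4, was at -3.16 and -2.42 in undifferentiated cells, 3.40 and 3.10 in differentiated cells, and 1.46 and 1.31 in cabozantinib-treated cells. It rose by 6.04 in differentiated cells (SE 0.51, limma adjusted p = 0.000296) and by 4.17 in cabozantinib-treated cells (limma adjusted p = 0.00186), and both calls were kept in each of the 16 other limma settings. The 2 groups in differentiation medium did not overlap for Dio2, and the difference between them was -1.87 (limma adjusted p = 0.0705).

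The others that rose were transporters and a corepressor. Slco1c1, a T4 transporter, did not exceed background clearly in undifferentiated cells, and was at least 11.4-fold higher in differentiated cells (limma adjusted p = 0.000618) and at least 5.69-fold higher in cabozantinib-treated cells (limma adjusted p = 0.00265). Its other probe was called in both comparisons too, with differences of 4.53 and 4.22. That probe was dim (mean -4.695 over the 6 arrays). No bound is given for it, so these differences may overstate what was measured. Both Slco1c1 calls at the brightest probe were lost with normexp, and over all settings those differences were as small as 1.40 and 0.73. Slc16a10, a transporter of aromatic amino acids and thyroid hormones, rose by 3.01 and 2.61 (limma adjusted p = 0.00649 and 0.0151), while its other probe was at 0.85 in both comparisons and was not called. Hr, a corepressor of nuclear receptors whose gene responds to thyroid hormone, rose by 3.39 and 2.76 (limma adjusted p = 0.00742 and 0.0206). The Hr call in cabozantinib-treated cells was lost with quantile normalization, with normexp, in the authors' values and without the filter on dim probes. Both Slc16a10 calls were lost with normexp, and that in cabozantinib-treated cells also in the authors' values. Nr1d1, which encodes the circadian repressor REV-ERBα, was at -3.97 and -2.59 in undifferentiated cells, was not well above background on either differentiated array, and was at least 5.18-fold lower in differentiated cells (limma adjusted p = 0.00196). The Nr1d1 call was lost with normexp, and over all settings its difference was as small as -1.69. The Nr1d1 and Thra loci overlap in the RefSeq annotation, and whether their probes lie in the overlap was not tested.

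Npr3 was highest in cabozantinib-treated cells. Its signal was -0.06 and 1.32 in undifferentiated cells, 0.81 and 0.66 in differentiated cells, and 2.05 and 1.99 in cabozantinib-treated cells, well above background on all 6. Both cabozantinib values lay above the other 4 arrays, and the undifferentiated arrays differed by 1.38 from each other. The difference of cabozantinib-treated from differentiated cells was 1.29 (SE 0.55, 95% confidence interval 0.05 to 2.53, 2.44-fold, limma adjusted p = 0.198). It was 1.39 relative to undifferentiated cells (limma adjusted p = 0.118), and 0.10 between differentiated and undifferentiated cells (limma adjusted p = 0.977). Of 14 other natriuretic peptide genes, 9 were tested and 1 was called in each comparison with undifferentiated cells. For all genes the shares called there were 10.7% (differentiated) and 12.6% (cabozantinib-treated). Mme, the peptidase neprilysin that degrades natriuretic peptides, rose by 2.11 in differentiated cells (limma adjusted p = 0.0262), and its other probe by 2.90. The Mme call at the brightest probe was lost with normexp, in the authors' values and without the filter on dim probes. Ostn, which encodes osteocrin, a ligand of NPR3 made by osteoblasts, was at -3.69 and -2.55 on the undifferentiated arrays and was well above background on 1 differentiated array and on no cabozantinib array. It was at least 4.91-fold lower in cabozantinib-treated than in undifferentiated cells (limma adjusted p = 0.0146). The Ostn call was lost with quantile normalization, with normexp and in the authors' values, and its difference was as small as -1.91 over all settings.

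Ghr was measured by 2 probes that differed in their spread. Probe A_51_P499854 was at -0.87 and 1.21 in undifferentiated cells, 1.21 and -0.99 in differentiated cells, and 1.37 and 0.59 in cabozantinib-treated cells. The values of the undifferentiated and differentiated groups covered nearly the same range, and the SE of the 3 differences was 0.85. Probe A_55_P2059412 was at 1.96 and 1.01, then 2.01 and 2.77, and then 2.34 and 2.64. Its differences were 0.91, 0.09 and 1.005 (SE 0.56, limma adjusted p = 0.438, 0.971 and 0.2496). Neither probe was called, and the interval of the second comparison for this probe ran from -1.15 to 1.34.

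Of 19 other genes of the growth hormone pathway, 18 were tested. In differentiated relative to undifferentiated cells 2 rose and 2 fell, and in cabozantinib-treated relative to undifferentiated cells 3 rose and 2 fell. The shares of all genes called in these comparisons were 10.7% and 12.6%. Igf1, the growth factor that GH signaling induces, was at 3.73 and 2.45 in undifferentiated cells, 6.84 and 7.46 in differentiated cells, and 6.63 and 7.10 in cabozantinib-treated cells. It rose by 4.07 (SE 0.59, limma adjusted p = 0.00267) and 3.78 (limma adjusted p = 0.00510), and both calls were kept in each of the 16 other settings. Of its 4 probes, 3 were called in both comparisons and the dimmest, at 1.07 and 1.04, was not. Sirpa, a receptor abundant on macrophages that recruits phosphatases, rose by 2.54 and 2.25 (limma adjusted p = 0.0115 and 0.0212). Ptpn6, the phosphatase SHP-1 of blood cells, rose by 2.21 in cabozantinib-treated relative to undifferentiated cells (limma adjusted p = 0.0277). The Ptpn6 call was lost with normexp, in the authors' values and without the filter on dim probes. The Sirpa call in cabozantinib-treated cells was lost without that filter. Igfbp3, which carries IGF1, fell by 2.42 in differentiated cells (limma adjusted p = 0.0156) and was at least 4.20-fold lower in cabozantinib-treated cells (limma adjusted p = 0.00321). Both Igfbp3 calls were lost with normexp, and over all settings the differences were as small as -1.21 and -1.63. Ptpn1, a phosphatase that acts on JAK2, fell by 3.07 in differentiated cells (limma adjusted p = 0.00910), while its dimmer probe was at 0.29. The Ptpn1 call was lost with normexp. Gh itself, near background throughout, was at -2.33 in cabozantinib-treated relative to undifferentiated cells (limma adjusted p = 0.0225), where the bound was at least 1.04-fold. The Gh call was lost with normexp, in the authors' values and without the filter on dim probes.

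**Figure D3:**
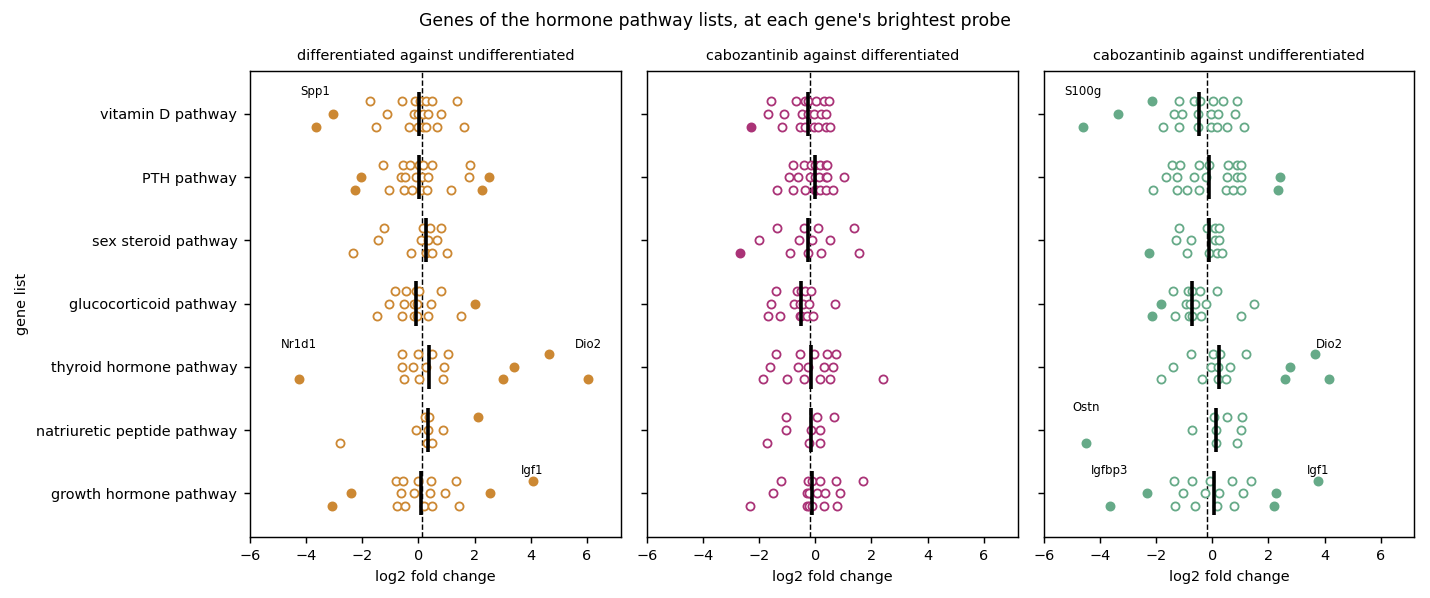
Log2 fold change at the brightest probe (x axis) of the genes in 7 hormone pathway lists (y axis) in the 3 comparisons. Each point is a gene, filled where the limma adjusted p is under 0.05, vertical bars are list medians, and the dashed line is the median of all genes. Dio2 at 6.04 and Nr1d1 at -4.25 are the ends of the thyroid hormone list in differentiated against undifferentiated cells, and 2 points are filled in cabozantinib-treated against differentiated cells (Cyp27a1 and Hsd17b1).

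The calls of the 7 lists changed with the processing and with single arrays. Of 17 calls between differentiated and undifferentiated cells, normexp kept 4, no filter on dim probes 10, the authors' values 12 and quantile normalization 14. Of 18 calls between cabozantinib-treated and undifferentiated cells these settings kept 4, 8, 8 and 11, and of the 2 calls between cabozantinib-treated and differentiated cells they kept 0. The calls kept in every setting were those of Igf1 and Dio2. Of the 17 calls, 15 remained without undifferentiated replicate 1, 7 without undifferentiated replicate 2, 10 without differentiated replicate 1 and 9 without differentiated replicate 2. Of the 18 calls, 13 remained without undifferentiated replicate 1, 13 without undifferentiated replicate 2, 7 without cabozantinib replicate 1 and 6 without cabozantinib replicate 2. Of the 2 calls, 1 remained without differentiated replicate 2 and 0 without any other array of these groups. No called difference changed sign in any setting. In cabozantinib-treated relative to differentiated cells, where 5 lists had no call, the fit without the replicate term called between 0 and 3 genes of each. That fit called 12.5% of all probes in this comparison.

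Markers of some other cells moved with the same comparisons. Of all genes at their brightest probe, 10.7% were called in differentiated and 12.6% in cabozantinib-treated cells, each relative to undifferentiated cells. Of 10 osteoblast markers tested (11 listed), 4 rose and 1 fell in differentiated relative to undifferentiated cells, with a median of 0.38, and 4 rose and 2 fell in cabozantinib-treated relative to undifferentiated cells, with a median of 0.59. Bglap2, which encodes osteocalcin, rose by 5.06, Phex by 6.38, Dmp1 by 3.995 and Ibsp by 2.21 in the first comparison, where Spp1 fell by 3.67. Sp7, a transcription factor of osteoblasts, fell by 2.04 in the second (limma adjusted p = 0.0410), where Spp1 fell too. Of 10 macrophage and osteoclast markers tested (12 listed), 5 rose in each of these comparisons, and all 10 were above background on all 6 arrays. Their summed linear signal, in units of the 75th percentile, was 69.6 to 116 in undifferentiated cells, 439 to 619 on the differentiated arrays and 399 to 491 in cabozantinib-treated cells. Of 8 adipocyte markers tested (10 listed), 6 rose in differentiated and 5 in cabozantinib-treated cells relative to undifferentiated cells, with summed signals of 5.12 to 5.75, 71.2 to 96.4 and 58.3 to 59.6, and Adipoq and Cfd were not well above background on either undifferentiated array. In differentiated relative to undifferentiated cells 2 of 7 chondrocyte, 1 of 5 endothelial and 1 of 3 erythroid markers tested rose. There 1 of 6 muscle markers fell, and the list medians in this order were -0.01, 0.75, 0.12 and -0.02. In cabozantinib-treated relative to differentiated cells 1 adipocyte, 1 endothelial and 1 muscle marker fell and no other marker was called (2.18% of all genes). The adipocyte median there was -1.21, beside -0.21 over all genes. The part of these cell types in the levels of Vdr, Pth1r, Igf1, Sirpa, Dio2 and the other genes was not tested.

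Over the 11 member probes the groups did not overlap for 5 probes between differentiated and undifferentiated cells (46.3% of all probes, 24.9% higher and 21.4% lower), for 6 between cabozantinib-treated and differentiated cells (57.6%, 14% higher and 43.6% lower), and for 10 between cabozantinib-treated and undifferentiated cells (63.8%). In the last comparison 6 member probes were higher (19% of all probes) and 4 lower (44.7%). The median difference of the member probes was 0.16, 0.27 and 0.81, beside medians of 0.08, -0.27 and -0.39 over all probes. Since probes had to be well above background on 2 arrays, these figures describe 11 of the 15 probes. The genes whose 6 values ran closest to a member, by the root mean square of the differences between centered log2 values over 12871 other genes, were Mmp8 (0.133) for Vdr, Gtf3c1 (0.0828) and Mmab (0.0885) for Pth1r, Sub1 (0.0220) and Aasdh (0.0429) for Nr3c1, Fgfrl1 (0.104) and Glul (0.117) for Thra, Rasl11b (0.230) and Tnfrsf19 (0.239) for Npr3, and Pde2a (0.0391) and P4ha3 (0.0649) for Ghr. Mmp8 encodes a collagenase.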

How the data were processed

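RNA of 6 samples was hybridized to 1-color whole mouse genome arrays. The deposited scanner files hold an intensity per spot, which the authors' scanner software (Feature Extraction 11.0.1.1) had corrected for background, and no fold change or p-value columns of a comparison. The authors also deposited a table of log2 values for 30439 probes, whose normalization steps are not given in the sources used here. Its columns had medians of 7.504 to 7.506 and it served as an alternative.

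Control and outlier spots were dropped, log2 of the processed signal was set relative to the 75th percentile of each array, and spots of a probe were averaged. That percentile lay between 625 and 1773 intensity units, and the number of arrays limits the precision. Probes were named through their RefSeq accessions, which gave a gene for 69.1% of 39429 probes. A probe entered the test if at least 2 of the 6 arrays had it well above background. The test was limma 3.58.1 (R 4.3.3), fitted to the 6 arrays together. Replicate number was a term of the model because the study's statistics name a paired test. Benjamini-Hochberg adjustment covered every probe tested. The steps were tested on simulated data. A probe not well above background on any array of a group has only a bound there, given as at least N-fold from the normalized log2 means, with the lowest signal well above background of each array as the floor. Such a bound holds for the main scaling alone, and other settings gave smaller differences for several of these genes. Where a gene of a pathway list had several probes, the brightest was used. The text names every probe of the 9 genes, each pathway gene whose brightest probe was called, and, for members above background on all arrays, the 2 genes with the closest pattern, of which 1 is not reported here. The 9 genes and the lists were chosen with earlier results of these data known. Alternatives were other normalizations, filters and designs, and each array left out in turn. With the replicate term, leaving out an array of the group not compared repeats the fit to the 4 arrays compared. Counts of settings include these repeats. Promoters were those of RefSeq for GRCm38.p6. The study's methods and the labels give 30 days of culture, and other parts of its text name an earlier day.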

Additional observations from a re-analysis of the deposited data

How the results depend on the processing

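Of 519 member differences under other settings, 449 kept their direction and side of the threshold, 34 passed it newly, 7 (all Thrb A_52_P877015 in cabozantinib-treated against undifferentiated cells) no longer passed it, and 29 changed sign. Deviations of same-numbered arrays correlated at -0.506 (undifferentiated and differentiated), -0.527 (undifferentiated and cabozantinib) and 0.265 (differentiated and cabozantinib). Whether the replicate numbers pair the samples cannot be told from these values, since such deviations can also come from the arrays. Without the replicate block, 3, 1 and 2 member probes were called (differentiated against undifferentiated, cabozantinib against differentiated and cabozantinib against undifferentiated) in place of 1, 0 and 1, among 3788, 3414 and 6652 probes in all in place of 2729, 734 and 3721, and with a crossed block 3, 3 and 6 among 7361, 8295 and 12316. The calls gained without the block were Pth1r (adjusted p = 0.0477) and Thrb A_52_P877015 (0.0392) in the first comparison, and Vdr in the others (0.0415 and 0.0163). With the 4 arrays of cabozantinib against differentiated cells alone, 2 member probes were called with the block, among 6472 probes in all, and 3 with no block, among 5614. In cabozantinib against undifferentiated cells 3 were called with no block, among 5400 probes in all. The methods' t-test, paired, called 0 member probes and 0 of all probes after adjustment in each comparison. An unpaired test called 0 member probes, and 0, 0 and 2 of all probes. With 2 arrays per group an adjusted call was nearly out of reach for any probe, so these counts say little about the members. At an unadjusted p under 0.05 the 2 tests called 2 and 3 member probes in cabozantinib against differentiated cells, among 4437 and 5730 in all. In cabozantinib against undifferentiated cells they called 1 and 3, among 2154 and 6330. Quantile normalization, normexp background correction, the authors' values and dropping the filter on dim probes each left 0 member probes in cabozantinib against undifferentiated cells. A filter for all 6 arrays also left 0 in that comparison, but it removed Thrb A_52_P877015 (above background on 5 arrays) before the test. Trend and robust settings gave 2 there, among 4197 probes in all, and the filter for all 6 arrays left 1550 in all. Leaving out single arrays gave 1 to 2, 0 to 2 and 0 to 5 member probes, with 2, 2 and 2 without undifferentiated replicate 1, 2, 2 and 5 without undifferentiated replicate 2, and 0 in the last comparison without either cabozantinib array, and 1581 to 5312, 49 to 6472 and 823 to 9959 probes in all. Over all probes, normexp gave 756, 0 and 513 calls, the authors' values 1747, 0 and 1171, no filter 1729, 0 and 1385, and quantile normalization 0 and 1527 in the last 2. The share of calls that were higher in cabozantinib against undifferentiated cells was 32.7%, and 70.7% with quantile normalization, 65.5% with normexp and 75.4% in the authors' values.

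Signs changed for 12 of 33 member differences, none of them called. In differentiated against undifferentiated cells these were Cyp24a1 (-0.22 with normexp), Nr3c1 A_52_P254174 (0.0715 with quantile normalization and 0.0695 in the authors' values) and Thrb A_52_P532559 (-0.10 with normexp). In cabozantinib against differentiated cells they were Nr3c1 A_55_P1967885 (0.0268 with quantile normalization and 0.0286 in the authors' values), Thra A_51_P475995 (0.0119 and 0.0164) and Thrb A_52_P877015 (-0.0548 with normexp). In cabozantinib against undifferentiated cells Nr3c1 A_52_P254174 was at 0.0575 with quantile normalization and 0.0592 in the authors' values. With single arrays left out, the ranges in the first comparison were -0.47 to 0.79 for Cyp24a1, -0.0813 to 0.0505 for Nr3c1 A_52_P254174, -0.25 to 1.19 for Thrb A_52_P532559, -0.64 to 0.84 for Npr3 and -1.84 to 1.72 for Ghr A_51_P499854. In the second they were -0.37 to 0.15 for Nr3c1 A_55_P1967885, -0.78 to 0.69 for Thra, -0.14 to 0.6746 for Thrb A_52_P877015, -0.56 to 2.29 for Ghr A_51_P499854 and -0.45 to 0.64 for Ghr A_55_P2059412, and in the last -0.97 to 2.59 for Ghr A_51_P499854. The cause of these changes was not tested. Scan as a block could not be fitted, because the cabozantinib arrays were scanned apart from all the others. The Esr1 probes and 1 Thra probe were not well above background on any array, and Cyp24a1 on 3 of 6 arrays.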
